A study of Schizosaccharomyces pombe with 8 samples.

Results

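The genes for small nucleolar RNAs (snoRNA) and small nuclear RNAs (snRNA) of Schizosaccharomyces pombe were examined for histone H3 and for histone H3 trimethylated at lysine 4 (H3K4Me3). Members were all nuclear genes typed as snoRNA or snRNA in the RefSeq annotation of assembly ASM294v3 that lie on chromosome II, on chromosome III or on chromosome I below position 3750000. A stretch of chromosome II that holds snoU14 was left out. Of 72 such genes in the nuclear annotation, 62 had a value and 10 were left out, namely snoU14 and 9 genes of the right end of chromosome I, among 10462 annotated genes with a value. The 62 members comprised 56 genes typed snoRNA and 6 typed snRNA, and they formed 49 loci when genes under 500 bp apart were counted together. By position, 10 lay inside an intron of a protein-coding gene, 22 lay in a noncoding host transcript or were such a host, and 30 were free-standing. Of the 22, 7 were annotated primary transcripts that were counted as genes of their own beside the snoRNA they contain.

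Spliceosomal snRNAs form the catalytic and recognition core of the spliceosome, which removes introns from pre-mRNA. Most snoRNAs guide chemical modification of ribosomal RNA by base pairing, those with boxes C and D directing 2′-O-methylation and those with boxes H and ACA directing pseudouridylation, while a few such as U3 and U17 (snR30) act in cleavage of the rRNA precursor. In yeasts, U1, U2, U4 and U5 are made by RNA polymerase II and U6 by RNA polymerase III, and snoRNAs come either from promoters of their own, from noncoding precursors cut into several snoRNAs, or from introns of coding genes. Trimethylation of H3 lysine 4 is laid down by the Set1 complex near the 5′ ends of genes that RNA polymerase II transcribes, and nucleosome-poor stretches are typical of promoters.

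Both marks were measured by chromatin immunoprecipitation on tiling microarrays (ChIP-on-chip) in diploid pat1-114 cells (strain PN2159, homozygous for this temperature-sensitive allele, with ade6-M210 and ade6-M216) that entered meiosis synchronously when shifted to 34°C. The -N cells had been starved of nitrogen and given nitrogen again before the shift, and were fixed 2 h after it. The +N cells were kept in supplemented minimal medium, held in G1 with the mating pheromone M-factor, released and fixed 30 min after the shift. Both times mark the start of pre-meiotic S phase, and the effects of nitrogen, pheromone and time at 34°C cannot be told apart. All 4 groups (H3 -N, H3 +N, H3K4Me3 -N and H3K4Me3 +N) share the strain, the mutation and the shift, and none is a mitotic or pat1+ control. The comparison of +N with -N asks whether chromatin at these genes differed between the nutritional conditions under which origin usage was compared.

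There were 2 arrays per group and 8 in all, every array carrying ChIP DNA in red and input DNA in green. The level of a gene on an array was the mean log2 ratio of ChIP to input over probes within 500 bp of the gene, after the median of the nuclear probes had been set to 0. A level of 0 thus stands for the typical probe of that array and not for absence. Each member rested on 2 to 9 probes. Replicate 1 of every group was hybridised on 1 slide and replicate 2 on the other, so replicate and slide are the same split. The share of probes whose ChIP signal was well above background ranged from 83.4% to 98.3% on the H3 arrays and from 43.95% to 95.3% on the H3K4Me3 arrays, with the lower values on slide 1. Probes of mitochondrial DNA, which carries no histones, had medians between -4.54 and -2.85 on all arrays. The H3 +N replicate 1 array had the widest spread of probe ratios among the H3 arrays (SD 0.97 against 0.68 to 0.79). No member had every probe dim on both arrays of a group, and no member had a saturated probe.

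The bases upstream of the snRNA genes and of the U3 gene snu32 are shown because H3 was called lower at every one of them. All sequences printed here are from RefSeq, assembly ASM294v3. Capitals mark CAGTCAC, the core of the HomolD promoter element of S. pombe (read as GTGACTG on the other strand), and TTACTATA. The letters run 5′ to 3′ on the strand of the gene up to the base before its annotated 5′ end, and the stretch for U6 is shorter because the coding gene cwf21 adjoins it.
U1 (snu1), chrII:3020105-3020204, plus strand: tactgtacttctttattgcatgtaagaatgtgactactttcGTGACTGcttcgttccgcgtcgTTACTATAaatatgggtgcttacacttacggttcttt
U2 (snu2), chrI:959557-959656, minus strand: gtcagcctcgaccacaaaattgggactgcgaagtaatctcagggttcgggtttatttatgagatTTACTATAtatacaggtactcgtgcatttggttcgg
U4 (snu4), chrII:467616-467715, minus strand: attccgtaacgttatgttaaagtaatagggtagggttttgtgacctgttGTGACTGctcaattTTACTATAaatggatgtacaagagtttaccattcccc
U5 (snu5), chrII:3236767-3236866, plus strand: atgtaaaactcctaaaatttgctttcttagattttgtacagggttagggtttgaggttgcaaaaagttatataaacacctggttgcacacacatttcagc
U6 (snu6), chrI:2562420-2562476, minus strand: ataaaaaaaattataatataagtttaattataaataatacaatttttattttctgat
U3B (snu32), chrII:3959087-3959186, minus strand: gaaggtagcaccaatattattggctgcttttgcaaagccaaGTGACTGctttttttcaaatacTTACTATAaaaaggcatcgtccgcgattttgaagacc

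In these windows TTACTATA began at position -37 from the annotated 5′ end in U1, U4 and U3B and at -36 in U2, and the HomolD core preceded it in U1, U4 and U3B. The U5 and U6 windows held neither. The other U3 gene, snu3, carried TTACTATA at -160 and the HomolD core at -181. The first 30 bases of snu32 were found 122 bases before the annotated 5′ end of snu3, so this end lies further inside the RNA than that of snu32. In windows from 250 bases before to 50 after the annotated 5′ end, with both strands searched, HomolD (CAGTCACA) was present for 12 of 62 members (19.4%) against 1.64% of the windows of all 10462 genes and 2.69% of those of protein-coding genes. The shorter CAGTCAC, which every HomolD match contains, was present for 17 members (27.4%) against 3.29% of all genes. In both counts SPNCRNA.723 and snR41 hold the same site, as do SPNCRNA.7474 and snR46, so these sites count for 2 members each. Both counts also include 2 intron members, snR48 and snoZ15. The HomolD site of snR48, at -155, lies upstream of the 5′ end of its host rps3 as well. TTACTATA was present for 7 members (11.3%) against 3.25%, and TATAAA for 30 members (48.4%) against 45.1%, with TATAAA overlapping TTACTATA at -33 in U1, U4 and U3B. The shorter core and TTACTATA were picked after the sequences had been seen, so their shares describe these windows only.

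The RNA genes on which the results below turn are shown next. In U1 the capitals mark the bases that pair with the 5′ splice site, in U5 the conserved loop that contacts exon ends, and in U6 the ACAGAGA box, which also pairs with the 5′ splice site. In the snoRNA genes they mark an exact box C (ATGATGA or GTGATGA) within the first 30 bases, a box D (CTGA) within the last 20, or the ACA of an H/ACA RNA within the last 6. The U6 gene of S. pombe is known to be split by an intron of the pre-mRNA type, and the stretch shown includes it.
U1 (snu1), chrII:3020205-3020353, plus strand: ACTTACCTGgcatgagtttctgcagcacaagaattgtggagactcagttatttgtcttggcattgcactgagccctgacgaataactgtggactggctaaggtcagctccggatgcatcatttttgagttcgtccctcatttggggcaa
U5 (snu5), chrII:3236867-3236986, plus strand: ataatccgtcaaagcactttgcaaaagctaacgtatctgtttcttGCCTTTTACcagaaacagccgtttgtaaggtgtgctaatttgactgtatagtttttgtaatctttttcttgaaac
U6 (snu6), chrI:2562276-2562419, minus strand: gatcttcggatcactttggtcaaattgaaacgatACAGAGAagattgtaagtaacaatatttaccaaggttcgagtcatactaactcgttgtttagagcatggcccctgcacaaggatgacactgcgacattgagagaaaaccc
snR48, intron of rps3, chrII:4239161-4239235, minus strand: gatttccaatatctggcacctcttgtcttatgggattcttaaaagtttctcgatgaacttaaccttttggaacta
snoR39b, intron of rpl701, chrII:1791743-1791820, minus strand: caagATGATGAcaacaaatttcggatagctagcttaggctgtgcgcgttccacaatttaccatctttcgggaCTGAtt
snoR39a, intron of rlp7, chrI:1712996-1713071, plus strand: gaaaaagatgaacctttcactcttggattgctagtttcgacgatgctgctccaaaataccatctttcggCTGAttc
snoU24b, intron of cpc2, chrI:2440336-2440418, plus strand: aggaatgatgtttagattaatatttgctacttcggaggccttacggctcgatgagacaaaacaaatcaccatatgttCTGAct
sno52, free-standing, chrI:339548-339642, minus strand: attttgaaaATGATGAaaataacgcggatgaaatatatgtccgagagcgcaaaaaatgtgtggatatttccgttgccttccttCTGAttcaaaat
snR92, free-standing H/ACA, chrII:2121215-2121358, plus strand: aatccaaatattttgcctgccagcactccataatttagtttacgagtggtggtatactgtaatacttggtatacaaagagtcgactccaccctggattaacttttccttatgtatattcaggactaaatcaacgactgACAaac
snR95, free-standing H/ACA, chrII:1468185-1468406, minus strand: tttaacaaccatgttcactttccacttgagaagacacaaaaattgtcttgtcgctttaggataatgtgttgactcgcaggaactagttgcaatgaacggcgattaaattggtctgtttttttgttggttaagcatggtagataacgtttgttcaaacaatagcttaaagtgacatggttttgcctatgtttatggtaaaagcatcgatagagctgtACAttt

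An ACA stood within the last 6 bases of 10 of the 18 genes annotated as box H/ACA. Among the other 31 snoRNA genes, primary transcripts aside, 23 had CTGA within the last 20 bases and 9 also had an exact box C within the first 30. No annotated H/ACA gene had both boxes C and D. Box C was missing from snoR39a, snoU24b and snR48 by these letters, which says only that the exact string was not in that stretch.

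Across all 4 groups the family was poor in H3 and rich in H3K4Me3. The median H3 level of the 62 members was -0.70 against -0.20 for all genes, and their median H3K4Me3 level was 1.14 against 0.58. By array, the members' median H3 level was -0.64 and -0.49 on the -N arrays and -1.06 and -0.57 on the +N arrays, where that of all genes lay between -0.29 and -0.17. Their median H3K4Me3 level was 1.18 and 1.39 on the -N arrays and 0.88 and 1.56 on the +N arrays, where all genes lay between 0.46 and 0.72. The members' median was lower than that of all genes on each of the 4 H3 arrays and higher on each of the 4 H3K4Me3 arrays.

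In limma's moderated test of each level against the array median, with Benjamini-Hochberg adjustment over all 10462 genes and a threshold of 0.05, H3 was lower at 43 members (69.4%), where 47.2% of all genes were called lower, and higher at 3 members (4.84%), where 11.3% were. H3K4Me3 was higher at 49 members (79.0%) against 56.5% of all genes and lower at 3 (4.84%) against 21.1%. H3K4Me3 exceeded H3 at 52 members (83.9%) against 64.3% of all genes, and was under it at 3 (4.84%) against 16.7%. These shares set short genes beside longer ones, whose windows hold more of the gene body. Among 2716 other genes of at most 500 bp, the median levels were -0.30 for H3 and 0.56 for H3K4Me3. G+C content also differed, with a median of 32.5% in the members' windows against 35.3% for all genes and 31.5% for tRNA genes, and its part in the ratios was not tested.

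The class medians lay farther apart in H3 than in H3K4Me3, and the differences between classes were not tested. Median H3 was -0.79 for the 30 free-standing genes, -0.72 for the 22 genes of noncoding hosts and -0.20 for the 10 genes in introns, the last close to the -0.18 of 4317 protein-coding genes. The SD of the class median over the 4 H3 arrays was 0.23, 0.26 and 0.21 for these classes. Median H3K4Me3 was 1.15, 1.11 and 1.35 for these classes, against 0.61 for protein-coding genes. H3 was called lower at 21 of 30 free-standing genes (70.0%), 18 of 22 in noncoding hosts (81.8%) and 4 of 10 in introns (40.0%). It was called lower at 47.2% of all genes and 43.2% of protein-coding genes, and the intron share was below both. The 22 genes of noncoding hosts formed 9 loci, and some of them share probes. Without the 7 primary transcripts, which share probes with the snoRNA inside them, the medians of the remaining 55 members were -0.70 for H3 and 1.12 for H3K4Me3. The 122 tRNA genes, which are short and free-standing but made by RNA polymerase III, had a still lower H3 median of -1.03 and a low H3K4Me3 median of -0.47. They were lower in H3 in 94.3% and in H3K4Me3 in 53.3% of cases. The levels of every member by class are shown in the plot of levels.

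**Figure D1:**
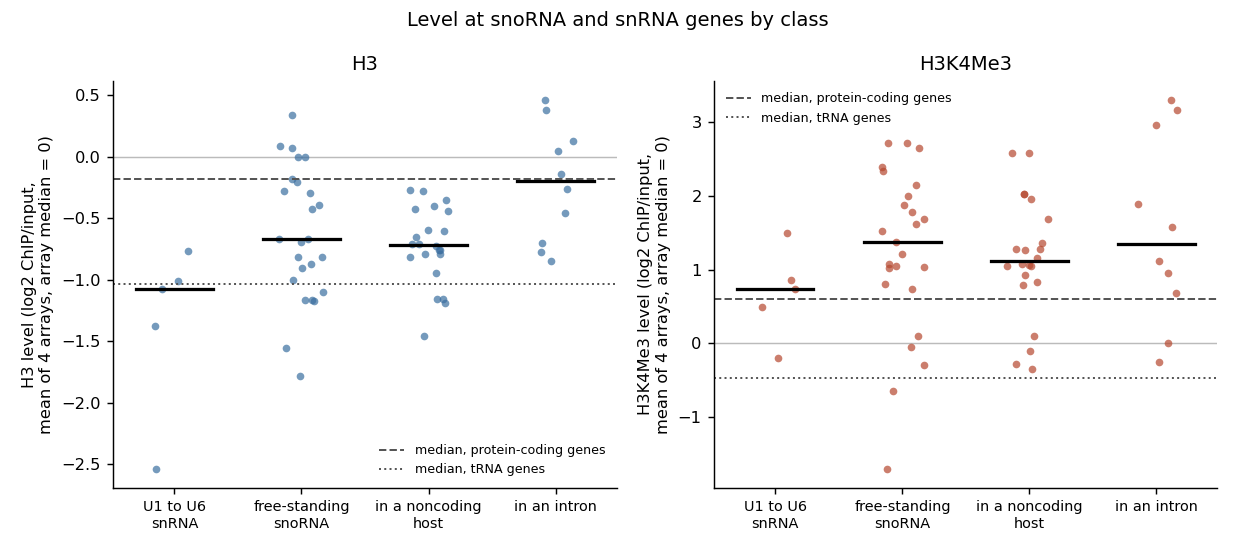
Mean H3 (left) and H3K4Me3 (right) level of each snoRNA or snRNA gene, as log2 ChIP over input with the array median at 0, averaged over 4 arrays and grouped by class; points are genes, black bars class medians, and dashed and dotted lines the medians of protein-coding and tRNA genes. In H3 the free-standing snoRNA genes (median -0.67), the snRNA genes (-1.07) and the noncoding-host genes (-0.72) lie below the protein-coding median of -0.18, and the intron genes (-0.20) lie at it.

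Narrowing the window to 200 bp brought the levels of free-standing genes further from 0. With probes within 200 bp, the median over the 27 free-standing genes that kept a probe was -1.04 for H3 and 2.01 for H3K4Me3. Over all members, median H3 was -0.75 with these probes (58 members) and -0.68 with only probes overlapping the gene (42 members). Averaged in 200 bp bins along the gene, H3 around free-standing genes was lowest in the bin centred on the annotated 5′ end on 3 arrays (-0.87, -0.79 and -0.95). On the H3 +N replicate 1 array it was lowest 200 bp further in (-1.56). H3K4Me3 was highest in the bin at the 5′ end on all 4 arrays, at 1.67 and 2.01 on the -N arrays and 1.29 and 2.06 on the +N arrays. Each bin held 12 to 22 genes. Protein-coding genes differed in the layout of both profiles. Their H3 minimum lay 200 bp upstream (-1.15 to -0.78) and their H3K4Me3 maximum 200 bp downstream (2.25 to 3.11). At tRNA genes both H3 and H3K4Me3 were lowest at the 5′ end or 200 bp downstream, with H3K4Me3 between -1.16 and -0.68. In the bin at the 5′ end itself, protein-coding genes had levels close to those of free-standing genes on the -N arrays, with H3 of -0.83 and -0.77 and H3K4Me3 of 1.67 and 2.06.

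**Figure D2:**
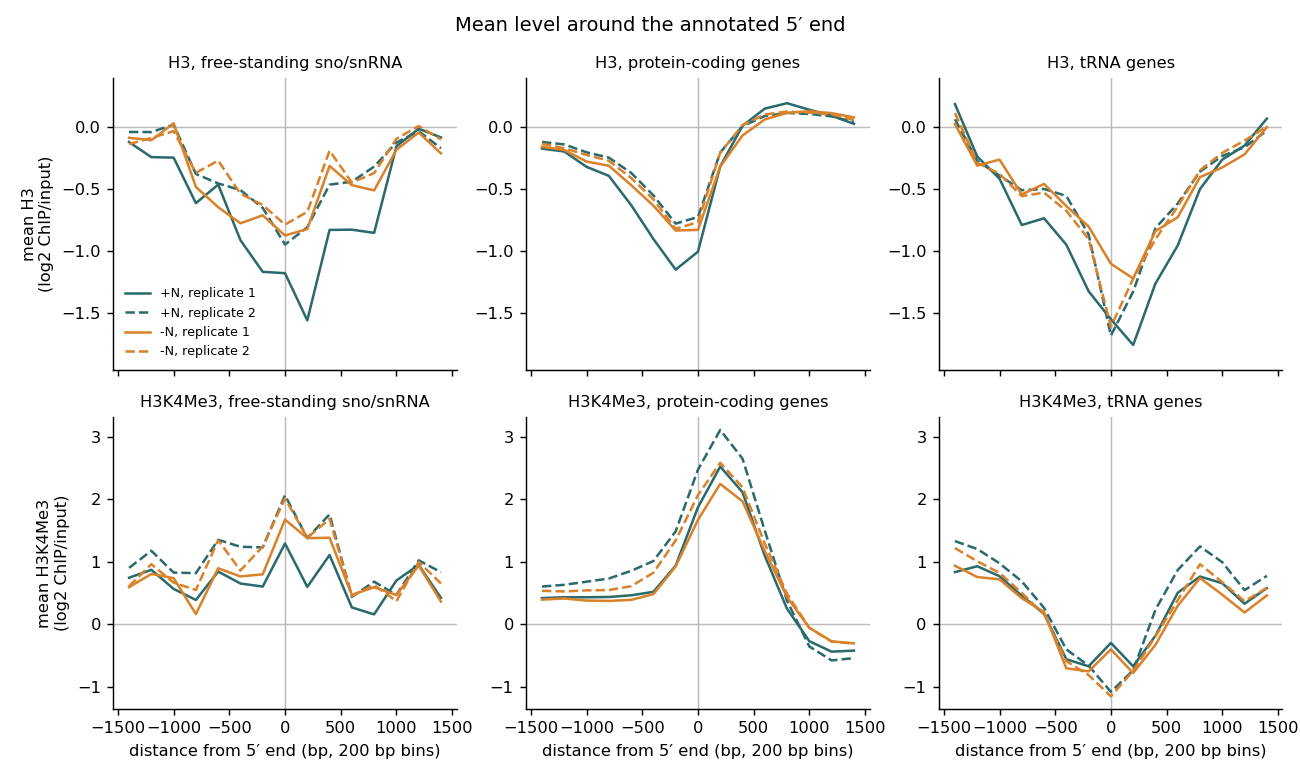
Mean log2 ChIP over input in 200 bp bins by distance from the annotated 5′ end, for H3 (top) and H3K4Me3 (bottom) at free-standing snoRNA and snRNA genes, protein-coding genes and tRNA genes; each line is 1 array, orange for -N and green for +N, solid for replicate 1 and dashed for replicate 2. At free-standing genes the H3K4Me3 maximum (1.29 to 2.06) sits at the 5′ end, at protein-coding genes 200 bp inside (2.25 to 3.11), and tRNA genes have no H3K4Me3 maximum there, all 4 arrays reading below 0 at the 5′ end.

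Among the spliceosomal genes, the lowest H3 level of all 62 members was at snu5, the gene for U5, which holds exon ends together during splicing. Its 4 H3 values were -2.15 and -2.30 on the -N arrays and -3.21 and -2.50 on the +N arrays, a mean of -2.54 ± 0.47 (SD, n = 4 arrays; limma adjusted p = 5.39e-05). H3 at snu2, for U2, which recognises the branch site, was -1.51 and -1.37 on the -N arrays and -1.57 and -1.06 on the +N arrays (mean -1.38 ± 0.23). All 5 genes for U1, U2, U4, U5 and U6 were called lower in H3, with a median of -1.07, and on every H3 array each of the 5 was below the array median. These levels describe the windows around the genes. The 2 probes of snu5 were centred 242 and 532 bp downstream of its annotated 5′ end and did not overlap the gene. At snu2 the H3 level was above the array median when only probes overlapping the gene were read.

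Averaged over the 4 arrays, H3K4Me3 was lowest at U6 among the spliceosomal genes, but in +N alone the means of U1 (-0.25) and U5 (-0.08) lay below that of U6 (-0.01). At snu6, whose RNA forms the catalytic centre with U2, H3K4Me3 was -0.65 and -0.15 on the -N arrays and -0.45 and 0.44 on the +N arrays, a mean of -0.20 ± 0.47 that was not called different from the array median (adjusted p = 0.346). At snu2 the values were 1.30 and 1.59 on the -N arrays and 1.31 and 1.75 on the +N arrays (mean 1.49 ± 0.22), so all 4 arrays lay above those of snu6. At snu4, for U4, the partner that is released from U6, they were 1.02 and 0.81 on the -N arrays and 0.23 and 0.89 on the +N arrays (mean 0.74 ± 0.35), and the lowest of these lay under the highest of U6. The mean was 0.85 ± 1.17 at snu5 and 0.49 ± 1.25 at snu1, for U1, which recognises the 5′ splice site. The level at snu5 was -0.44 when outlier-marked probes were kept. At both genes, the spread over arrays came with the difference between -N and +N described below. The difference between U6 and the other snRNA genes was not tested. H3K4Me3 exceeded H3 at all 5 genes, from 0.87 at snu6 (adjusted p = 0.0114) to 3.39 at snu5 (8.17e-06). A coding gene's 5′ end lay 464 bp from snu6, 329 bp from snu2 and 328 bp from snu1, within the 500 bp windows, and the part of these neighbours in the levels was not tested. For snu4 and snu5 the nearest was 1309 and 1114 bp away.

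The 2 genes for U3, the snoRNA that starts cleavage of the 18S rRNA precursor, followed snu5 in H3 depletion. H3 at snu32 was -1.61 and -1.44 on the -N arrays and -2.29 and -1.79 on the +N arrays (mean -1.78 ± 0.37), and at snu3 it was -1.66 and -1.18 on the -N arrays and -1.71 and -1.68 on the +N arrays (mean -1.56 ± 0.25). Their H3K4Me3 means were 1.79 ± 0.56 and 2.00 ± 0.75. H3K4Me3 over H3 was 3.57 at snu32 and 3.56 at snu3, the former being the highest of the family, level with the 3.57 at snR48 to 2 decimals. The values of the U3 genes overlapped in both marks.

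**Figure D3:**
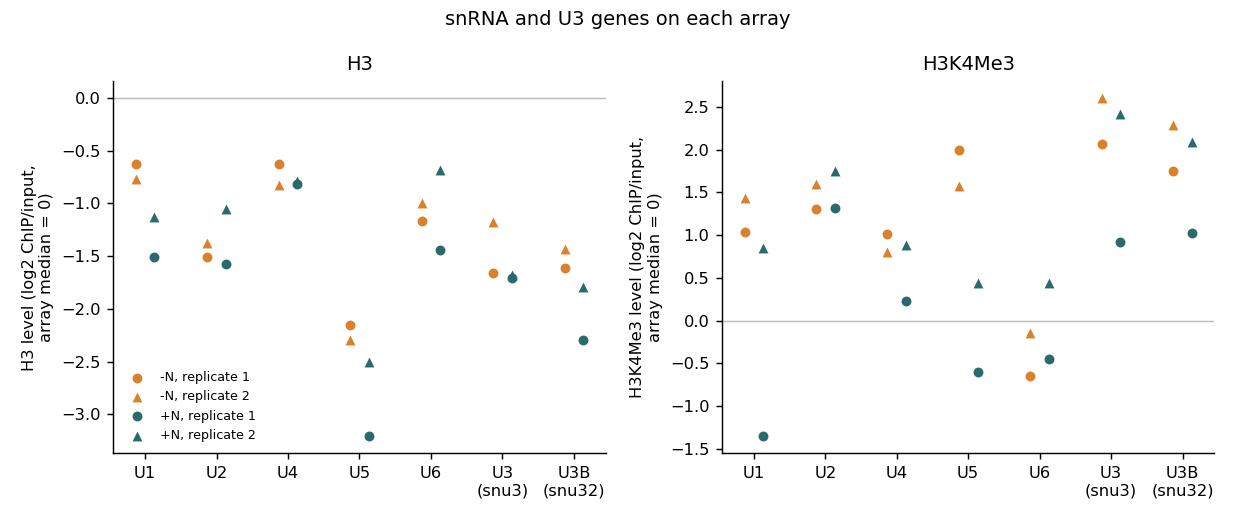
H3 (left) and H3K4Me3 (right) level, as log2 ChIP over input with the array median at 0, at the 5 snRNA genes and the 2 U3 genes on each array; orange points are -N and green points +N, circles replicate 1 and triangles replicate 2. U5 lies lowest in H3 (-3.21 to -2.15), U6 lies around 0 in H3K4Me3, and at U1 and U5 both +N values of H3K4Me3 lie below both -N values.

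The fourth locus with low H3 was snoR68, which is cut from the precursor SPNCRNA.1650. H3 there was -1.47 and -1.35 on the -N arrays and -1.70 and -1.31 on the +N arrays (mean -1.46 ± 0.17), while the longer precursor had -1.18 ± 0.06. Their H3K4Me3 means were 0.93 ± 0.65 and 1.69 ± 0.56. Free-standing genes with low H3 and high H3K4Me3 included snR30 (U17), snoR61 and sno12, with H3 of -1.16, -1.16 and -1.17 and H3K4Me3 of 2.34, 1.87 and 1.53. At snR30, which is needed for 18S rRNA maturation, H3K4Me3 was 2.36 and 2.35 on the -N arrays and 2.19 and 2.46 on the +N arrays.

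Free-standing genes also held exceptions in both marks. The lowest H3K4Me3 of all members was at sno52, which carries boxes C and D and lies antisense to taf9, which encodes a subunit of TFIID and SAGA. Its values were -1.77 and -1.21 on the -N arrays and -2.29 and -1.57 on the +N arrays (mean -1.71 ± 0.45, adjusted p = 0.000162). All 4 of its probes failed to rise well above background on both slide 1 H3K4Me3 arrays and rose well above it on both slide 2 arrays, and the level was below 0 on every array. H3 at sno52 was -0.81 ± 0.37. At snR92, an H/ACA gene, H3 was instead raised, at 0.44 and 0.21 on the -N arrays and 0.48 and 0.23 on the +N arrays (mean 0.34 ± 0.14, adjusted p = 0.0124), with H3K4Me3 at -0.65 ± 0.44. Both genes, together with snR191 in an intron of nog2 (a GTPase of 60S ribosome assembly), were the 3 members at which H3K4Me3 was called below H3. The nearest coding 5′ end was 1246 bp from sno52, 958 bp from snR92 and 1033 bp from snR191. A mean of -0.30 ± 0.79 placed snR33 among the 4 lowest loci in H3K4Me3, but 3 of its 5 probes were dim on both arrays of both conditions, and without dim probes its level was 1.26. The other 5 antisense free-standing genes (snR96, snoR02, snr79, snR36 and sno20) had mean H3K4Me3 between 0.09 and 2.39.

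The highest H3K4Me3 among free-standing genes was at snR95, an H/ACA gene 104 bp from the 5′ end of wdr8. It was 2.51 and 2.77 on the -N arrays and 2.31 and 3.27 on the +N arrays (mean 2.72 ± 0.42), beside H3 of -0.81 ± 0.48. The snoRNA gene snoZ16 had the same rounded mean (2.72 ± 0.53), and snR42 followed with 2.65 ± 0.39. Of the 13 free-standing genes annotated H/ACA, 9 (69.2%) were called higher in H3K4Me3, where 56.5% of all genes were, and 8 (61.5%) lower in H3, where 47.2% were, with medians of 1.05 and -0.66. The 9 free-standing genes within 500 bp of a coding 5′ end had median levels of -1.003 for H3 and 1.08 for H3K4Me3, and the 21 farther away had -0.70 and 1.22.

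Genes in noncoding hosts were called higher in H3K4Me3 in 18 of 22 cases (81.8%), where 56.5% of all genes were. The 22 genes formed 9 loci, and some share all their probes, as SPNCRNA.901 and snR91 do, so these cases are not separate measurements. At snR41 and snR70, which share all probes within the precursor SPNCRNA.723, H3K4Me3 was 2.51 and 3.40 on the -N arrays and 1.76 and 2.65 on the +N arrays (mean 2.58 ± 0.67). The third snoRNA of this precursor, snR51b, had 1.96 ± 0.79, and the window of the whole precursor had 1.07 ± 0.50. The 4 genes not called higher were snR97 and 3 genes of the snoZ cluster, from whose precursor 5 of the measured snoRNAs are cut. H3K4Me3 was 0.84 ± 0.15 at snoZ8 and 1.16 ± 0.36 at snoZ7 but -0.10 ± 0.64 at snoZ5, -0.35 ± 0.31 at snoZ4 and -0.29 ± 0.21 at snoZ3. It was called higher at the first 2 and lower at snoZ4 (adjusted p = 0.0421). With outlier-marked probes kept, the level at snoZ4 was 0.52, so its direction rests on which probes are read. H3 was -0.82 ± 0.54 at snoZ8 and -0.94 ± 0.69 at snoZ7, against -0.44, -0.43 and -0.40 at the other 3, and the +N replicate 1 array was the lowest at all 5.

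The highest H3K4Me3 of the family was at 3 snoRNA genes inside introns of genes for ribosomal or ribosome assembly proteins. At snR48, in the intron of rps3 (a protein of the small ribosomal subunit), it was 3.06 and 2.51 on the -N arrays and 3.91 and 3.75 on the +N arrays (mean 3.31 ± 0.65, adjusted p = 4.07e-05). At snoR39b, in rpl701 (large subunit), it was 2.78 and 2.74 in -N and 3.58 in both +N arrays (mean 3.17 ± 0.47), and at snoR39a, in rlp7, it was 2.97 ± 0.28. H3 at these genes was -0.26, -0.14 and -0.45. The gene snR48 is typed snRNA in the annotation, although its product is given as a small non-coding RNA and not as a spliceosomal RNA. H3 was highest of all members at SPNCRNA.498 in ipa1 (0.47 ± 0.30) and at snoU24b in cpc2 (0.38 ± 0.15), the gene of the ribosome-associated RACK1 protein. At SPNCRNA.498, 1 of 3 probes was dim on both H3 -N arrays, and 1 was dim on both H3K4Me3 arrays of each condition. The 3 genes with the highest H3K4Me3 lay 104, 475 and 211 bp from the 5′ end of their hosts. Farther in, H3K4Me3 was 1.12 at snoR54 (659 bp, in the IMP dehydrogenase gene gua1), 0.69 at SPNCRNA.498 (736 bp), 1.89 at snoU24b (825 bp), 0.00 at snoR47 (913 bp, in the kinetochore gene fta3), -0.25 at snR191 (1033 bp) and 0.96 at snoZ15 (1036 bp, in the prefoldin gene pfd1). The remaining intron member, snoU18 in ero11, is not placed in this series, and its H3K4Me3 values are given below. A relation between the level and this distance was not tested. The 10 host genes, read over their whole length, had median levels of -0.21 in H3 and 1.29 in H3K4Me3, next to -0.20 and 1.35 at the snoRNA genes within them, and hosts and snoRNA genes share probes.

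No member was called different between +N and -N in limma's test of 2 arrays against 2, either in H3, in H3K4Me3 or in the difference between the changes of the marks, and no gene of the whole table was (0.0% of 10462 in each). At an unadjusted p under 0.05 in limma there were 10 of 62 members for H3, 6 for H3K4Me3 and 5 for the difference of changes. Among all genes there were 211, 375 and 368 of 10462, a smaller share each time. Members that share probes were counted separately. The smallest two-sided p that an exact permutation of 2 against 2 arrays can give is 0.333, so a single gene cannot be called that way. Labels name the arrays as replicates without saying that they came from separate cultures, and the tests measure the spread between these arrays.

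With the replicate number, which is also the slide, entered as a block in the limma fit, 7 members were called in H3K4Me3. These calls lean on the variance pooled over genes. Its prior weighed 13.1 degrees of freedom, against 4.51 without the block, and each gene's own 4 arrays added little. U5 fell by 1.87 (adjusted p = 0.00765), U1 by 1.49 (0.0302), snoU24b by 1.03 (0.0255) and SPNCRNA.1709 by 0.83 (0.0476). The 3 that rose were snR48 by 1.04 (0.0236), snR97 by 0.83 (0.0468) and snoR39b by 0.82 (0.0447). At snR97, an H/ACA gene in a noncoding host, the arrays overlapped, with -0.93 and 0.30 on the -N arrays and 0.07 and 0.95 on the +N arrays. These are 6.45% of members lower, where 0.669% of all genes were called lower, and 4.84% higher, where 1.29% were. Under the block no member was called in H3 or in the difference of changes, and for these 7 genes the adjusted p for the difference of changes ran from 0.517 to 0.786.

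At snu5 the H3K4Me3 values were 2.00 and 1.58 on the -N arrays and -0.60 and 0.44 on the +N arrays, and at snu1 they were 1.04 and 1.43 on the -N arrays and -1.35 and 0.85 on the +N arrays. In both genes the +N arrays lay below the -N arrays, with the lower +N value on slide 1. The change at snu5 was -2.59 on slide 1 and -1.14 on slide 2, and at snu1 it was -2.39 and -0.58. Each gene rested on 2 probes, none of which overlapped the gene. On the H3K4Me3 +N replicate 1 array both probes of snu1 and 1 probe of snu5 were not well above background. Without that array the change was -1.35 at snu5 and -0.38 at snu1. H3 also lay lower in +N at both genes, by 0.63 at snu5 and 0.62 at snu1, without overlap between the arrays and without a call (adjusted p = 1.0). On the H3 +N replicate 1 array both probes of snu1 and 1 of snu5 were likewise not well above background, as was 1 probe of each gene on the H3 -N replicate 1 array. At snu2, snu4 and snu6 the +N and -N arrays overlapped in both marks, as they did in H3K4Me3 at both U3 genes. The H3 arrays of the U3 genes did not overlap, with changes of -0.27 at snu3 and -0.52 at snu32 that were not called.

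At snR48 the H3K4Me3 values given above were higher in +N on both slides, as they were at snoR39b, and at snoU18 in ero11 they were 0.99 and 1.52 on the -N arrays and 1.56 and 2.25 on the +N arrays (change 0.65, not called with the block, adjusted p = 0.0936). At snoU24b they were 2.28 and 2.52 on the -N arrays and 0.98 and 1.77 on the +N arrays, lower in +N on both slides. Intron members thus held the 3 largest rises and 1 of the 3 largest falls in H3K4Me3 among members whose arrays did not overlap. Over all members, the +N arrays were all higher in H3K4Me3 at 8 (12.9%), where 17.1% of all genes were, and all lower at 9 (14.5%), where 14.6% were. Both shares were near or below those of all genes.

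For H3 the +N arrays were all lower at 21 members (33.9%) in 18 loci, where 18.6% of all genes were, and all higher at 1 (1.61%), where 9.71% were. That 1 was snR191, with 0.12 and 0.01 on the -N arrays and 0.22 and 0.17 on the +N arrays. The largest fall was at snoZ8, with -0.31 and -0.45 on the -N arrays and -1.49 and -1.01 on the +N arrays (change -0.87 ± 0.20 SE, adjusted p = 1.0). The members' median change in H3 was -0.19, being -0.28 on slide 1 and -0.12 on slide 2, against -0.05 for all genes. It rested largely on the H3 +N replicate 1 array, without which the median was -0.04. Without the H3 +N replicate 2 array it was -0.35. With arrays centred on the 10th percentile, which moves every gene alike, it was -0.02, where that of all genes was 0.12. The H3 +N replicate 1 array also had the widest spread of probe ratios among the H3 arrays, and the part of this spread in the change was not tested.

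**Figure D4:**
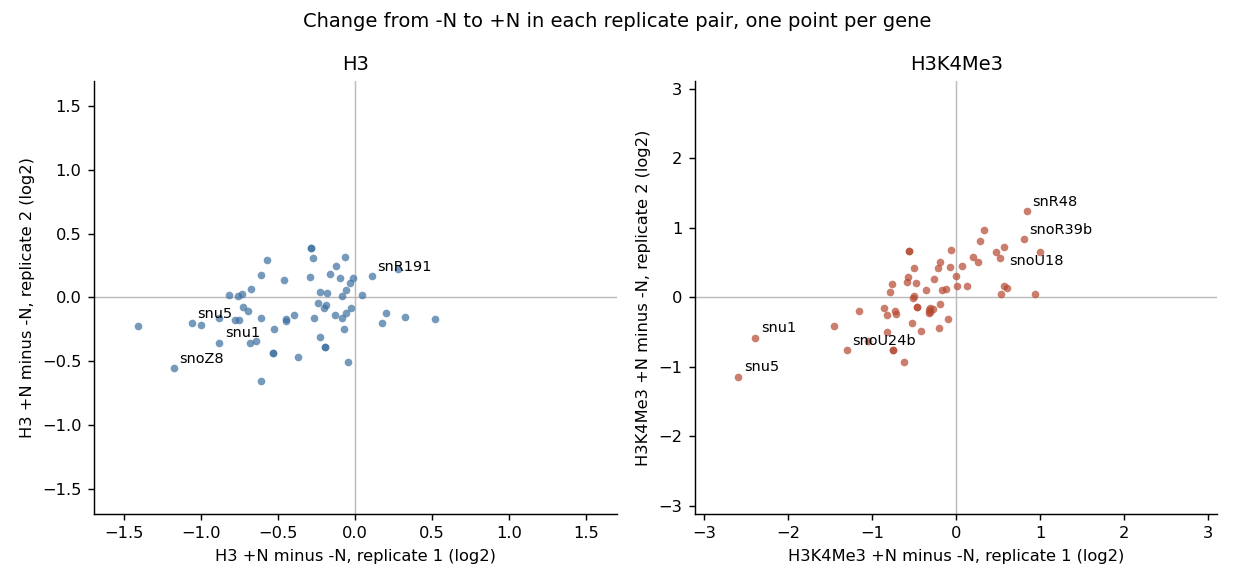
Change from -N to +N in replicate 1 (horizontal) and replicate 2 (vertical), as a difference of log2 ratios, for H3 (left) and H3K4Me3 (right); each point is 1 snoRNA or snRNA gene and grey lines mark no change. For H3K4Me3, snu5 (change -1.87) and snu1 (-1.49) lie at the lower left and snR48 (1.04) at the upper right, and for H3 most points lie left of 0 (55 of 62 in replicate 1).

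Genes for the proteins that bind these RNAs were called in neither mark between +N and -N. Of 28 listed proteins of the C/D, H/ACA, Sm and Lsm particles and their assembly, 23 had a value and 0 were called by limma, with 1 in H3 and 1 in H3K4Me3 at an unadjusted p under 0.05. H3K4Me3 was called higher at 18 of 23 and lower at 2, with a median of 1.41, where 56.5% and 21.1% of all genes were. H3 was called lower at 13, where 47.2% of all genes were, and its median of -0.23 was near the -0.20 of all genes. The median change was -0.10 in H3 and -0.01 in H3K4Me3. The C/D core gene fib1, for the methyltransferase fibrillarin, had H3K4Me3 of 1.101, and nop10, of the H/ACA core, had 0.48 with a change of -0.98 that was not called (adjusted p = 0.998). Of the other stable noncoding RNAs, the RNase MRP RNA gene mrp1 had -0.72 in H3 and 2.45 in H3K4Me3, the telomerase RNA gene ter1 -0.49 and 1.02, and the RNase P RNA gene rrk1 0.00 and 1.86, while srp7 was not analysed here.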

How the data were processed

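Schizosaccharomyces pombe ChIP DNA was amplified with T7 RNA polymerase, and ChIP (Alexa 647, red) and input (Alexa 555, green) were hybridised to Agilent tiling arrays. The authors deposited the scanner files of Agilent Feature Extraction 10.7.3.1, whose processed red and green intensity values are background-subtracted and dye-normalised. The value table of log2 ratios that the authors deposited equalled log2 of red over green to within 5e-05 on each array, and was not used further. Probes were placed by the position in their name. The build is not given in the sources used here. Probe length followed local G+C content of ASM294v3 without a shift in 43 of 51 segments of 250 kb, and the other 8, at the right end of chromosome I, needed one and were left out.

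Control spots, mitochondrial probes and probes marked as outliers on any array were left out, 37239 of 42641 nuclear probes were kept, and each array was centred on its median. Gene values were means over probes within 500 bp. They were tested with limma 3.58.1 in R 4.3.3 (lmFit, eBayes, two-sided, Benjamini-Hochberg over all genes, threshold 0.05), each antibody alone for single marks and all 8 arrays for differences between marks. The fits were run on simulated data with known changes, larger than the mean changes named here and without a slide effect. Those runs do not show how well changes of the reported size would be found. No file gives depth, and the number of arrays limits the precision.

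Alternatives were the replicate block, centring on the 10th percentile, quantile normalization, normexp with an offset of 50 on median signals (the mean signals planned were not read), outlier-marked probes kept, dim probes left out, windows of 200 bp and of the gene itself, the median over probes and each array left out. Named genes are the snRNA genes, members called between +N and -N, per antibody the 3 largest rises and falls without overlap of arrays and the 4 loci with the highest and lowest level, and others named above were picked for their position or role after their values were seen. The members and lists were chosen with earlier results of these data known. Deviations from the group means of same-numbered arrays correlated at 0.229 for H3 and 0.64 for H3K4Me3, over genes, with 2 pairs each, and the numbers coincide with the slides. Sequences are from RefSeq, ASM294v3.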

Additional observations from a re-analysis of the deposited data

How the results depend on the processing

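No member was called between +N and -N when any 1 array was left out, under either centring, under quantile normalization or under the probe alternatives. The replicate block, which is also the slide, gave 3 members higher and 4 lower in H3K4Me3 and 0 in H3, and leaves the slide and the replicate as 1 split. Counts and class medians stayed within their margin in 187 alternatives, moved in 20 and reversed in 1, and single genes kept direction and call in 435, lost a call in 18, gained one in 20 and reversed in 29. The margin was a preset factor for a count and the SD over arrays for a class median. The 187 include counts of calls between +N and -N that were 0 in both the main fit and the alternative, which could hardly move. With 2 arrays a group, slide 1 dim in H3K4Me3 and 2 to 9 probes a gene, single changes are limited by the arrays. Probe alternatives also change which members have a value.

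Members called lower in H3 numbered 27 of 42 with only probes overlapping the gene, where 2957 of 9976 genes were called lower. Members called lower in H3K4Me3 numbered 6 of 62 with the replicate block, where 2606 of 10462 genes were. They numbered 1 of 56 without dim probes (539 of 9355 genes) and 5 of 58 with probes within 200 bp (2401 of 10391). With overlapping probes they numbered 5 of 42 (2398 of 9976), and with the median over probes 5 of 62 (2821 of 10462). H3K4Me3 was under H3 at 1 of 55 members without dim probes (453 of 9251 genes) and at 1 of 42 with overlapping probes (2167 of 9976). The free-standing median was -1.04 in H3 within 200 bp, and 2.01 within 200 bp and 2.17 with overlapping probes in H3K4Me3. The intron median was 0.14 in H3 with overlapping probes (3 genes), and 0.96 with normexp, 2.03 within 200 bp and 2.57 with overlapping probes in H3K4Me3. In noncoding hosts H3K4Me3 was 1.65 within 200 bp and 1.86 with overlapping probes. The cause of these shifts was not tested.

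With 1 array left out, changes between +N and -N were called at 0 to 0 members. H3 was called higher at 1 to 3 and lower at 42 to 49, H3K4Me3 higher at 48 to 49 and lower at 1 to 4, and H3K4Me3 above H3 at 51 to 53 and under it at 2 to 4. The low ends of 1 came without H3 -N replicate 1 and without H3K4Me3 -N replicate 1. Medians in H3 ran from -0.82 to -0.62 for free-standing genes, from -0.77 to -0.59 in noncoding hosts and from -0.30 to -0.10 in introns, and in H3K4Me3 from 1.05 to 1.32, from 1.04 to 1.28 and from 1.30 to 1.41.

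The H3 level of snu2 was 0.11 with overlapping probes. The H3 change of snR48 was 0.042 with 10th-percentile centring and ran from -0.34 to 0.093 with 1 array left out (0.030 without +N replicate 2). That of snu2 was -0.28 with normexp and -0.025 without dim probes, and ran from -0.13 to 0.38. That of snu4 was 0.092 with 10th-percentile centring, 0.018 with quantile normalization and 0.012 with normexp, and ran from -0.17 to 0.023. That of snu6 was -0.015 with normexp and -0.082 with the median over probes, and ran from -0.36 to 0.39 (-0.065 without -N replicate 1). The 10th-percentile centring moves the H3 change of every gene by the same amount. The median over all genes went from -0.045 to 0.12 with it. The H3K4Me3 change of snu2 was -0.081 with quantile normalization, -0.62 within 200 bp and -0.54 with overlapping probes, and ran from -0.13 to 0.31 (-0.061 without -N replicate 1), and that of snu6 ran from -0.052 to 0.84. The H3K4Me3 level of snR33 was 0.34 with normexp and 1.26 without dim probes, and ran from -0.62 to 0.023. That of snoZ4 was 0.52 with outlier-marked probes and 0.50 with overlapping probes, and that of snu5 was -0.44 with outlier-marked probes. That of snu1 ran from -0.060 to 1.04 and that of snu6 from -0.42 to 0.019.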
